A study of Mus musculus with 6 samples.

Results

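AP-1 and the immediate early genes of the mouse cornea are described here through 8 transcripts: Fos, Fosb, Jun, Junb, Jund, Atf3, Egr1 and Ier2. They were taken by symbol from the deposited feature list, where each symbol occurred in a single entry, so 8 of 31053 listed genes were used, each in every cell class and library. The series holds 6 droplet 3′ single-cell RNA libraries from naive female mice of a 129S2–C57BL/6-mixed background, and each library is a group of its own. Whole cornea anterior to the limbus was sampled from wild-type (WT) and from knockout (KO) mice at 2 and at 6 months, which gave 4 libraries. The other 2 libraries are the cornea-resident immune cells (CRIC) of 6-month WT and KO mice, enriched for CD45, the pan-leukocyte surface protein, with magnetic beads. The KO mice carry miR-183C GT/GT, which the labels describe as a knockout of the miR-183/96/182 cluster, and the WT mice were littermates. All 6 groups were digested with collagenase A and DNase I, triturated and depleted of dead cells before loading. No undissociated cornea was analysed here, so RNA made during digestion and RNA present in the tissue cannot be told apart. The sources used here do not say how many corneas or mice entered a library. The p-values below therefore do not measure the spread between mice. They rest on the few libraries of each test and on variance estimates shared across genes.

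AP-1 is a dimer of basic leucine zipper proteins. The Fos proteins (here Fos and Fosb) pair with the Jun proteins (Jun, Junb and Jund) and bind TGACTCA-like elements in promoters and enhancers. Fos, Fosb, Jun, Junb, Egr1 and Ier2 are immediate early genes: existing factors switch them on within minutes of a stimulus, with no need for protein synthesis, and their messages decay fast. Jund is the Jun gene with the steadiest expression in most tissues, and its protein can oppose the growth-promoting effect of Jun. Atf3 is a stress-induced member of the ATF family that dimerises with Jun proteins, and in macrophages it restrains inflammatory genes. Egr1 is a zinc-finger factor induced through serum response factor, and Ier2 is a small nuclear protein of the same first wave. Tissue digestion and shear are known to induce this group in many tissues, and Fos and Jun proteins are also known in the cornea as part of the wound response.

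The 3 microRNAs of the disrupted cluster are shown first, because the genotype comparison turns on them. They are encoded on the minus strand of chromosome 6 (RefSeq, GRCm38.p6), miR-183-5p at chr6:30169711-30169732, miR-96-5p at chr6:30169506-30169528 and miR-182-5p at chr6:30165962-30165986. They are written 5′ to 3′ with the seed, bases 2 to 8, in capitals.
mmu-miR-183-5p: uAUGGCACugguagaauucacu
mmu-miR-96-5p: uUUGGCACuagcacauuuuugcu
mmu-miR-182-5p: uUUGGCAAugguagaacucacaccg
No 2 of them share a seed. Matches to each seed were counted on the sense strand in the longest annotated 3′ UTR of each gene (GENCODE M21). Atf3 held 1 match to the miR-96 seed, GTGCCAA, a match found in 7.93% of the 21020 genes with a 3′ UTR. Egr1 held 1 match to the miR-183 seed, GTGCCAT, found in 8.82% of genes. The other 6 genes held no match to either, and none of the 8 held the miR-182 match, TTGCCAA, found in 10.9% of genes. A seed match describes letters in the UTR and does not show repression.

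The 250 bases before the start of Jun, Atf3 and Jund are printed because the clearest differences below were in these 3 genes. They are RefSeq sequences of GRCm38.p6, written 5′ to 3′ along the gene and ending at the base before its start: Jun on the minus strand at chr4:95052223-95052472, Atf3 on the minus strand at chr1:191183334-191183583 and Jund on the plus strand at chr8:70697489-70697738. Capitals mark TGACATCA, a variant of the cAMP response element.
Jun: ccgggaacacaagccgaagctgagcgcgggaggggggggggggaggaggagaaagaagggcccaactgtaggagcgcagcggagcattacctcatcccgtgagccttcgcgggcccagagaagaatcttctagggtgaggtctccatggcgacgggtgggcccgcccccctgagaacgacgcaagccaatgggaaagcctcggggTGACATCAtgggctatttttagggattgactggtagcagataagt
Atf3: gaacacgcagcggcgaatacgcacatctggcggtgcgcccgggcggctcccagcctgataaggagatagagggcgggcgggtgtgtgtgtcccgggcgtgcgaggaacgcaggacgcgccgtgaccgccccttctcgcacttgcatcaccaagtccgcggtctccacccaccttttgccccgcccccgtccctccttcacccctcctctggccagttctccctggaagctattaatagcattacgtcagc
Jund: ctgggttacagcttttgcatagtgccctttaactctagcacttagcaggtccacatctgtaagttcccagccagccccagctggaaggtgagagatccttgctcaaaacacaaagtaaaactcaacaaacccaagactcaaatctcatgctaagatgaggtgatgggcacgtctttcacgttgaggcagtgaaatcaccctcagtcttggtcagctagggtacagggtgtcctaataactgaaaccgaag
A set of 5 motifs was searched on both strands in windows of 250 bases before to 50 after the start. They were the AP-1 site TGACTCA, the whole cAMP response element TGACGTCA and its variant above, and also the CArG box of serum response factor and the TATA box TATAAA. The window of Jun held TGACATCA, which began 45 bases before the start and occurred in 3.76% of 27025 promoters. The windows of Atf3 and Jund held none of the 5 motifs. The AP-1 site, found in 5.17% of promoters, was not among the letters of the 6 windows searched (Fos, Fosb, Jun, Junb, Jund and Atf3), and neither were TGACGTCA (1.88%) and the CArG box (1.57%). Fos held TATAAA, found in 14.2% of promoters, 33 bases before its start, and Junb held it from its first transcribed base. The upstream sequences of Egr1 and Ier2 are not shown.

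The libraries held 9827933 to 117613142 unique molecular identifiers (UMIs, counted molecules) and 3350 to 15077 cells each, with a median of 1156 to 5497 UMIs per cell. Levels are given as CPM, a scaled share of molecules: the UMIs of a gene over all UMIs of the cells of a class in a library. Cells were clustered with the 8 genes, and lists of related early and stress genes, left out of the clustering. Keratocyte-like cells (Kera, Lum, Dcn and other stromal matrix markers) numbered 871 to 11015 per library and epithelial cells (Krt5, Krt12, Krt14 and other keratins) 514 to 3930. Macrophage-like cells (Csf1r, C1qa, Cd68 and others) numbered 76 to 267 in the 4 cornea libraries and 1497 and 2062 in WT and KO CRIC. Levels were also taken for the 116 neutrophil-like cells of KO CRIC (S100a8, S100a9, Csf3r) and for 32 and 140 T or innate lymphoid-like cells (Cd3d, Cd3e, Trdc) of WT and KO CRIC, while classes with under 20 cells in a library were not. The 2-month KO cornea library stood apart: it held 3077 Y-linked UMIs against at most 2 in the others, and 546 CPM of Xist against 617 to 906, although every library is labelled female. Any 2 libraries shared between 0.0597% and 0.388% of the cell barcodes of the smaller one.

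Fos was the most abundant Fos-family transcript in keratocyte-like cells. Its levels were 820.0 and 795 CPM in the WT and KO corneas of 2-month mice, 1129 and 1238 CPM in those of 6-month mice, and 764 and 866 CPM in the paired CRIC libraries. The highest level was in KO cornea at 6 months and the lowest in WT CRIC, and the 95% Poisson intervals, which cover counting error only, were narrow (724 to 807 CPM in WT CRIC). In epithelial cells Fos ranged from 337 to 678 CPM and in macrophage-like cells from 329.7 to 903 CPM, so the keratocyte-like and epithelial ranges did not overlap and the macrophage-like range overlapped each of them. Fosb, the second Fos gene, was lower in every class with 6 libraries. It lay between 75.4 and 246 CPM (median 115) in keratocyte-like cells, between 28.8 and 78.1 CPM (median 39.7) in epithelial cells and between 110.0 and 331 CPM (median 169) in macrophage-like cells. Barcodes of at most 100 UMIs carry RNA released from broken cells, called free RNA here. In epithelial cells Fosb was below the free RNA of the same library in 6 of 6 libraries. Such a level cannot be told apart from background here.

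Among the Jun genes, Junb was the most abundant in each of these 3 classes. It lay between 706 and 1247 CPM (median 843) in keratocyte-like, between 510.2 and 1051 CPM (median 812) in epithelial and between 891 and 1337 CPM (median 1076) in macrophage-like cells. Jun itself stood at 198 and 167 CPM in the WT and KO corneas of 2-month mice, 447 and 679 CPM in those of 6-month mice, and 379.6 and 505 CPM in the paired CRIC libraries in keratocyte-like cells, which puts both 2-month libraries below all 4 libraries of 6 months. In epithelial cells Jun lay between 301 and 681 CPM (median 525), and in macrophage-like cells between 251 and 554 CPM (median 403). Jund was the lowest of the Jun genes in keratocyte-like cells of 5 libraries. Its keratocyte-like levels were 175 and 192 CPM in the WT and KO corneas of 2-month mice, 94.0 and 131 CPM in those of 6-month mice, and 337 and 404 CPM in the paired CRIC libraries, with CRIC highest and the 6-month corneas lowest. Because a 3′ assay counts molecules without regard to transcript length, CPM of different genes are set side by side here as counts of molecules.

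Atf3 separated the classes most widely. In keratocyte-like cells it stood at 10.4 and 7.20 CPM in the WT and KO corneas of 2-month mice, 43.7 and 66.5 CPM in those of 6-month mice, and 64.2 and 73.8 CPM in the paired CRIC libraries. Macrophage-like cells held 563 and 731 CPM at 2 months, 719 and 224 at 6 months and 783 and 690.1 in CRIC, WT and KO in turn, and these values did not overlap those of keratocyte-like cells. Epithelial cells lay between 25.5 and 128 CPM (median 70.8). In macrophage-like cells Atf3 was above the free RNA of the library in 6 of 6 libraries, by 3.69 to 33.3 times. In keratocyte-like cells it was above free RNA in 1 of 6, KO cornea at 6 months. The other 5 values cannot be told apart from background.

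Egr1 and Ier2, the non-AP-1 members, ran in opposite order across these 3 classes. Among the 3, Egr1 was highest in keratocyte-like cells, at 806 and 667 CPM in the WT and KO corneas of 2-month mice, 892 and 1229.9 CPM in those of 6-month mice, and 1099 and 747 CPM in the paired CRIC libraries. Its epithelial levels lay between 154 and 578 CPM (median 398) and its macrophage-like levels between 227 and 537 CPM (median 317), above free RNA in 2 of 6 libraries in each of these 2 classes. Ier2 was the highest of the 3 in macrophage-like cells, between 463 and 600.5 CPM (median 550.1). In epithelial cells Ier2 lay between 288 and 516 CPM (median 383) and in keratocyte-like cells between 254 and 367 CPM (median 289). Summed over the 8 genes, the level varied 1.65-fold between libraries in keratocyte-like cells, 1.65-fold in epithelial cells and 1.61-fold in macrophage-like cells. The order of the libraries differed between the classes: KO cornea at 6 months had the highest sum in keratocyte-like cells (4803 CPM) and the lowest in both epithelial (2123 CPM) and macrophage-like cells (3096 CPM).

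**Figure D1:**
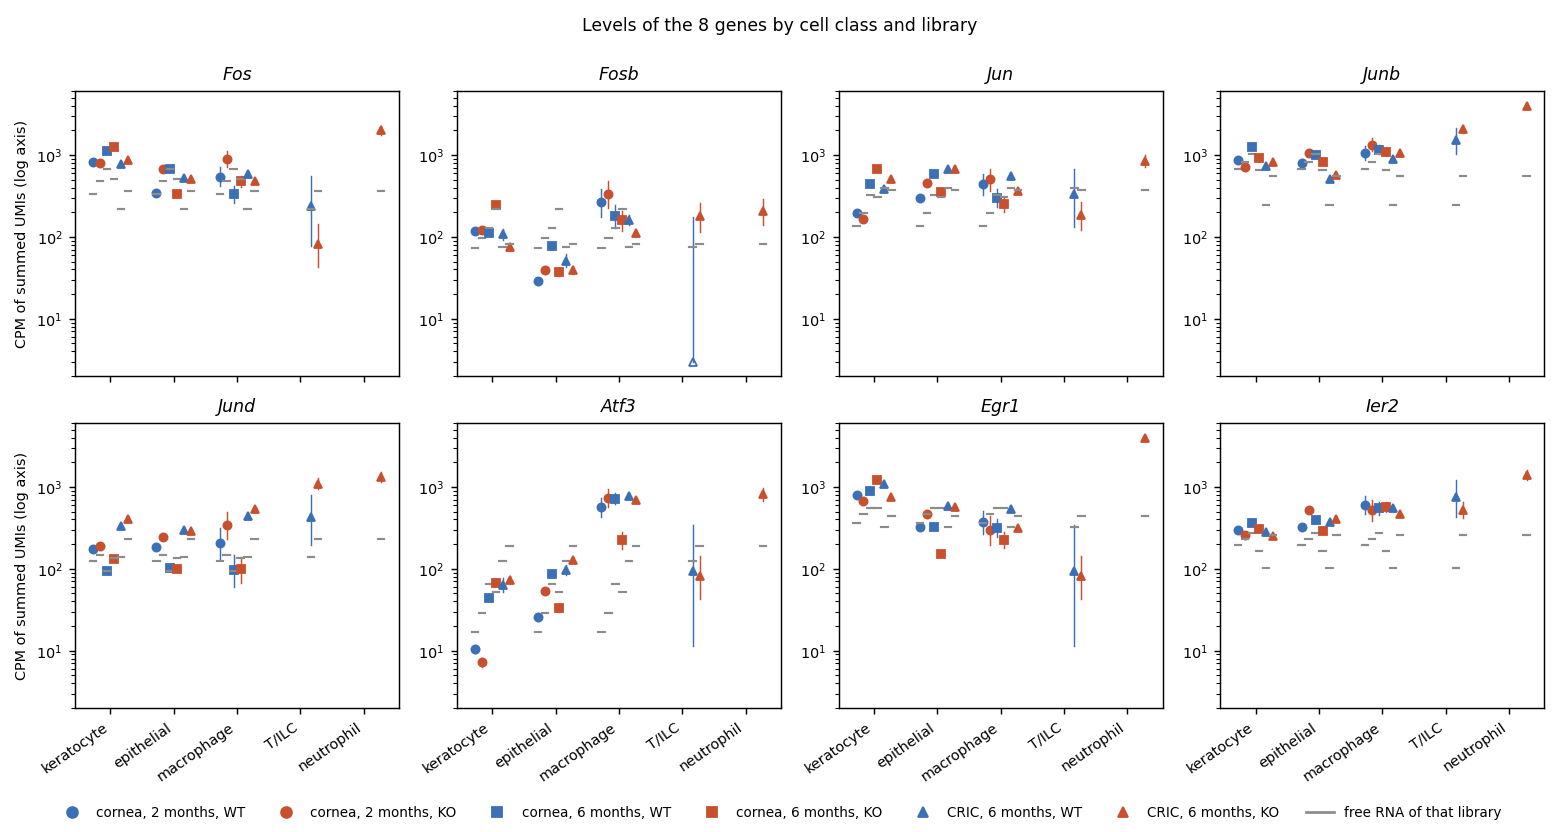
Level of each of the 8 genes by cell class, in CPM on a log axis, with 1 point per library. Colour gives the genotype, and marker shape gives age and whether the library is cornea or CRIC. Bars on the points are 95% Poisson intervals, and grey ticks mark the free RNA of the library. Atf3 in macrophage-like cells lies above its keratocyte-like levels in every library, and the 116 neutrophil-like cells of KO CRIC carry the highest level of 7 of the 8 genes, all but Fosb.

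The neutrophil-like cells of KO CRIC carried the most of these transcripts. Their sum over the 8 genes was 14568 CPM (13965 to 15191), against at most 4971 in any other class and library. Egr1 reached 3989 CPM there and Junb 3996 CPM. Fos stood at 1995, Ier2 at 1389.7 and Jund at 1323 CPM. With each cell thinned to 500 UMIs, 83.6% of these cells held Egr1 (75.6 to 89.8%, exact binomial) and 85.3% held Junb. In the macrophage-like cells of the same library 12.5% held Egr1 at that depth. All 8 genes were above free RNA in these neutrophil-like cells. Their median cell had 866 UMIs, and the 13 macrophage markers, several of which neutrophils share, summed to 10259.6 CPM in them. They come from a single library, so there is no replicate and no test. The T or innate lymphoid-like cells of the 2 CRIC libraries were rich in Junb beside Fos: Junb reached 1504 CPM (WT) and 2068 CPM (KO), while Fos had 235 CPM (WT) and 81.9 CPM (KO). Jund stood at 423 and 1092 CPM and Ier2 at 752 and 525. Fosb was not detected in the 32 WT cells, where a count of 0 allows up to 173 CPM (exact Poisson), and stood at 177 CPM in KO. Levels of Jun, Atf3 and Egr1 in this class were below free RNA in both libraries, as was Fos in KO. These levels cannot be told apart from background.

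Classes were then compared within libraries, with UMIs summed per class and library and edgeR's quasi-likelihood test blocked on library (6 libraries, adjusted p over all genes tested). Between keratocyte-like and epithelial cells 6 of the 8 genes passed, where 74.8% of all genes passed, so the count is close to the background. Atf3 was lower in keratocyte-like cells (log2 difference -1.75 ± 0.27, SE, adjusted p = 5.19e-05), as were Jun (-1.29 ± 0.20, adjusted p = 5.14e-05) and Ier2 (-1.20 ± 0.17, adjusted p = 1.67e-05). Fosb was the only gene of the 8 called higher, by 0.67 ± 0.22 (adjusted p = 0.0128). Junb (-0.65) and Jund (-0.74) were called lower, but with total UMIs as the only scaling both turned to 0.17 and 0.084, as the median of all genes moved from 0.068 to 0.88. The calls of Jun (-0.47) and Ier2 (-0.37) were lost with that scaling, and Fos (0.90) and Egr1 (1.24) passed as higher. With that scaling all genes split into 8486 called higher and 3023 called lower, against 5644 and 5286. Fosb did not pass without WT cornea at 2 months (0.53), nor Junb without KO cornea at 2 months (-0.32). In the TMM-scaled test Fos (0.076) and Egr1 (0.43) did not pass.

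Macrophage-like cells differed from keratocyte-like cells in 6 of 8 genes, where 54.9% of all genes passed. Atf3 was higher by 4.46 ± 0.35 log2 units (SE, edgeR adjusted p = 9.74e-16), higher in 6 of 6 libraries, and Ier2 by 1.23 ± 0.21 (adjusted p = 1.85e-06). Egr1 was lower (-1.07 ± 0.22, edgeR adjusted p = 4.83e-05). Across 14 other settings Ier2 lay between 0.69 and 1.12 and Egr1 between -1.60 and -1.18. The values of both genes in this fit thus fall outside every other setting. The calls of Fosb (0.94), Junb (0.66) and Jund (0.61) were less stable. Of 14 other settings, Jund was lost in 13, Junb in 10 and Fosb in 4. In all 14, Fosb (0.34 to 0.84) and Junb (0.10 to 0.56) also lay below these fitted values. Fos (-0.46, adjusted p = 0.0738) did not pass with all libraries but passed as lower in each of the 6 fits that left out a library (-0.95 to -0.63). The median of all genes was -0.20 in this fit and -0.59 with total UMIs as the only scaling, and the split of all genes moved from 2903 called higher and 3760 lower to 2323 and 5074. Against epithelial cells, Atf3 was higher in macrophage-like cells by 2.64 ± 0.26 (adjusted p = 1.06e-10) and Fosb by 1.48 ± 0.26, while Jun (-0.93 ± 0.24) and Egr1 (-0.73 ± 0.22) were lower, that is 4 of 8 genes where 54.7% of all genes passed. The call of Egr1 was lost without KO cornea at 2 months (-0.53). With total UMIs the median of all genes moved from -0.36 to 0.15, Junb and Ier2 became higher calls, the calls of Jun (-0.35) and Egr1 (-0.15) were lost, and the split moved from 2283 called higher and 4044 lower to 3237 and 2588. The clusters that make up the macrophage-like class differed between libraries. An H2-Eb1-led cluster held 77.0% of it in WT CRIC. The largest cluster in KO CRIC held 32.7%, and an Arg1- and Spp1-led cluster held 55.1% in KO cornea at 6 months.

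Free RNA carried all 8 genes in every library. Its summed level was 1625 CPM in WT CRIC and 3125 in WT cornea at 6 months, the lowest and the highest. Of the 48 values per class (8 genes in 6 libraries), 36 exceeded the free RNA of their library in keratocyte-like cells, 32 in epithelial cells and 37 in macrophage-like cells. Free RNA made up 7.58 to 9.12% of UMIs in 5 libraries and 16.2% in WT CRIC.

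Within a class the level depended on the cluster, although the 8 genes had no part in the clustering. Values here are medians over libraries. In the epithelium, a cluster led by Dapl1 and by Krt12 and Krt5, keratins of the corneal and the basal epithelium, held 1115 CPM of Fos and 782 of Jun. A superficial cluster led by Lce3a, Psca and Asprv1, genes of cornifying outer cells, held 51.4 CPM of Fos, 9.90 of Egr1 and 4.82 of Atf3. Junb was 883 CPM in that superficial cluster and 940.0 in the Krt5-containing one, so Fos, Egr1, Atf3 and Jun (177 CPM) were far lower in it while Junb was close. An epithelial cluster of shallow cells, led by Dsp, Krt12 and Col17a1, held the most Egr1 of the epithelial clusters, 1819.7 CPM, and 1324 CPM of Jun. Its cells had 842 to 1560.5 UMIs and 5.91 to 10.7% mitochondrial UMIs (medians by library), against 3145 to 7399 UMIs and 1.77 to 2.33% in the Krt5-containing cluster.

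Keratocyte-like clusters showed a similar split. The largest, led by Dcn, Igfbp2 and Lum, held 779 CPM of Egr1, 89.0 of Fosb and 53.0 of Atf3. A pair of clusters led by Lars2 held 1725 and 1538 CPM of Egr1 and 321 and 272 of Fosb. Cells of these clusters were shallow, 1061 to 2434 and 811 to 1138 UMIs, with 2.74 to 5.48% and 3.49 to 8.46% mitochondrial UMIs, against 2128 to 5341 UMIs and 1.65 to 2.40% in the largest cluster; the part of RNA quality in the difference was not tested. A cluster led by Saa3 and Chil1, genes of the acute phase, held 2147 cells of KO cornea at 6 months, 25.1% of its keratocyte-like cells, 46 of KO CRIC, 15 of WT cornea at 6 months and 1 and 2 of the WT and KO corneas at 2 months. Among macrophage-like clusters, the one led by Mmp12 held the most Atf3, 1135 CPM.

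**Figure D2:**
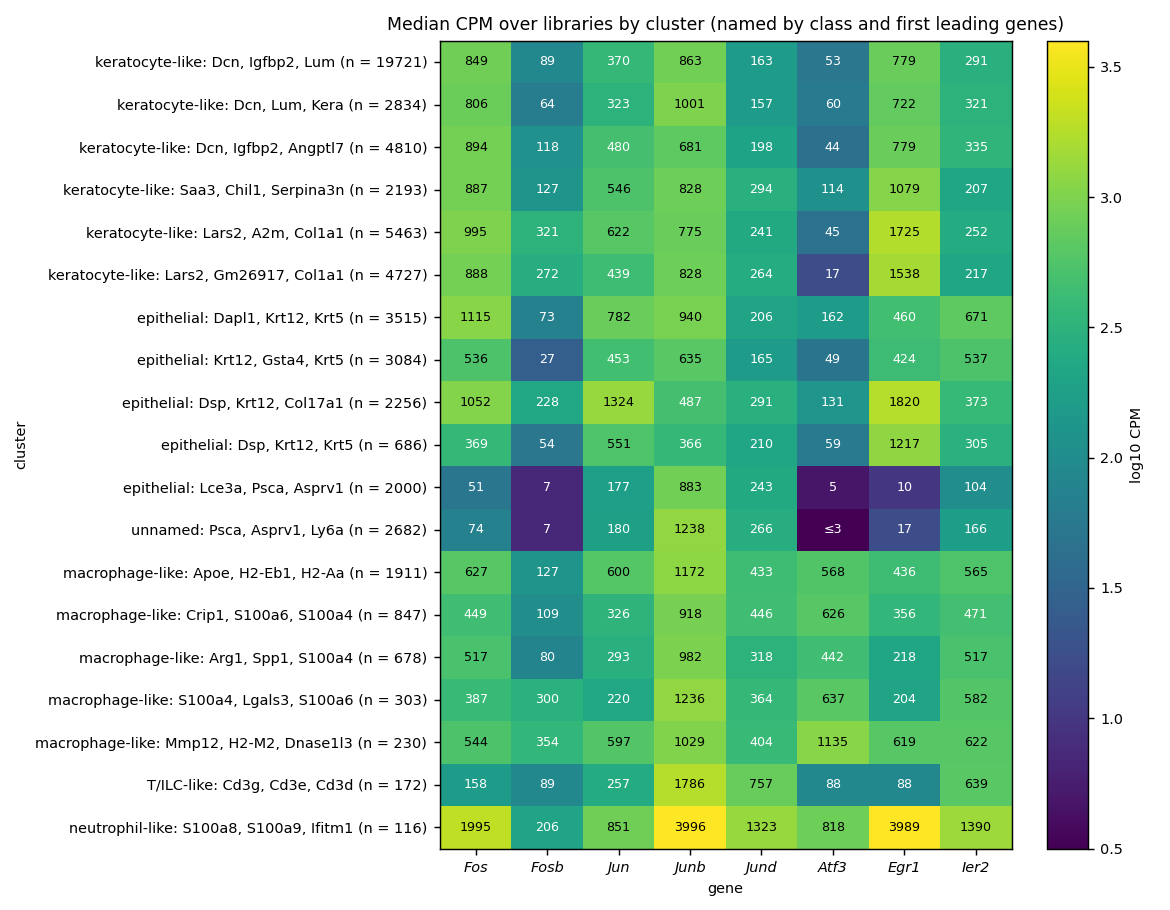
Median level over libraries of each gene (columns) in each cluster (rows, named by leading genes and cell number), in CPM with a log colour scale. The superficial Lce3a- and Psca-led rows are low in Fos, Egr1 and Atf3 (51.4, 9.90 and 4.82 CPM) and keep Junb (883 CPM).

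Fos occurred with Fosb and with Jun in single keratocyte-like cells more often than their shares alone would give. In keratocyte-like cells of the largest cluster, thinned to 500 UMIs, cells with both Fos and Fosb numbered 1.31 to 1.96 times the number that the product of the 2 shares gives, across libraries, and cells with both Fos and Jun 1.14 to 1.72 times. For Fos with Jund (0.88 to 1.24) and with Ier2 (0.90 to 1.29) the same ratio lay on both sides of 1. Across the 19 class-by-library sums with at least 50 cells and 100000 UMIs, the gene whose log2 level followed the mean of the 8 most closely was Zcchc6 (Pearson r = 0.91). Egr3, a sister gene of Egr1, had r = 0.89. Without the neutrophil-like sum their order turned, with r = 0.81 for Egr3 and 0.80 for Zcchc6 over 18 sums. Sums of 1 library share their depth and free RNA, so these correlations are descriptions.

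Age gave the clearest difference in keratocyte-like cells, in Atf3 and Jun. Atf3 went from 10.4 CPM (WT) and 7.20 CPM (KO) in the 2-month corneas to 43.7 CPM (WT) and 66.5 CPM (KO) in the 6-month corneas. Jun went from 198 CPM (WT) and 167 CPM (KO) to 447 CPM (WT) and 679 CPM (KO). For both genes the 2 libraries of 6 months were above the 2 of 2 months. With genotype as a covariate (4 cornea libraries), Atf3 rose by 2.50 ± 0.25 log2 units (SE, edgeR adjusted p = 3.02e-20) and Jun by 1.47 ± 0.32 (adjusted p = 0.00109). These were 2 of 8 genes, where 1.64% of all genes passed. With total UMIs as the only scaling the split of all genes moved from 119 called higher and 112 lower to 151 and 59, and both genes still passed. The log2 ratio of Atf3 was 2.06 in WT (1.89 to 2.24, counting error only) and 3.21 in KO, and that of Jun 1.18 and 2.02, where the median of all genes of at least 10 CPM was 0.055 and 0.17.

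With each of the 4 libraries left out in turn, Atf3 rose by 2.25 to 2.78 (2.26 without KO cornea at 6 months). Jun rose by 1.24 to 1.70. It did not pass without the 2-month KO library (1.36), which stands apart by its Y-linked UMIs, nor without the 2-month WT library (1.59). Each of these fits leaves 1 library in an age group and drops the genotype covariate, so the model changed as well. In the 5 keratocyte-like clusters with at least 50 cells at both ages in both genotypes, Atf3 (log2 ratios 1.60 to 2.55 in WT and 1.59 to 3.55 in KO) and Jun (1.15 to 1.60 and 1.59 to 2.75) were higher at 6 months. Free RNA moved the same way: Atf3 in free RNA was 16.9 and 28.9 CPM at 2 months and 64.3 and 52.5 at 6 months, and the keratocyte-like level was above it only in KO cornea at 6 months. Jun in free RNA went from 136 to 326 CPM in WT and from 197 to 306 CPM in KO, log2 ratios of 1.27 and 0.64 beside 1.18 and 2.02 in the cells. Macrophage markers moved with it too. Their sum over 13 genes in the keratocyte-like class was 26.4 and 27.0 CPM at 2 months and 34.2 and 37.0 at 6 months, with 11 to 13 of the 13 above zero. The part of free RNA and of macrophage RNA in the rise of Atf3 and Jun was not tested.

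The other 6 genes did not pass. Fos (log2 difference 0.42), Junb (0.32), Egr1 (0.38), Ier2 (0.14) and Fosb (0.33) were higher at 6 months by the fitted value and Jund was lower (-0.86, edgeR adjusted p = 0.115). Of the fixed lists in the same test, early inflammatory genes gave 5 higher and 0 lower of 8 tested, with Cxcl2 (2.95) and Cxcl1 (2.49), neutrophil-attracting chemokines, and Ccl2 (1.29), a monocyte-attracting chemokine, among them. Their summed level went from 290 to 375 CPM in WT and from 204 to 772 CPM in KO, and KO cornea at 6 months is the library in which the Saa3- and Chil1-led cluster held 25.1% of the class. The part of that make-up in the difference was not tested. Other immediate early genes gave 2 higher and 0 lower of 22 tested, the 2 being Myc (1.79) and Egr3 (1.56). No gene was called among the 15 other bZIP genes, the 14 feedback inhibitors, the 17 upstream kinases and serum response factors or the 14 heat shock genes tested. The median log2 difference was 1.19 over the early inflammatory genes and 0.45 over the other immediate early genes, against -0.017 over all genes.

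In epithelial cells no gene of the 8 passed for age by edgeR, where 1.01% of all genes passed, while 2 had an unadjusted p under 0.05 and DESeq2 called 1. Atf3 went from 25.5 CPM (WT) and 54.1 CPM (KO) at 2 months to 87.5 CPM (WT) and 33.3 CPM (KO) at 6 months, so it was higher with age in WT and lower in KO, where the median of all genes of at least 10 CPM was -0.17 and -0.81 on the log2 scale and the ratio of Atf3 1.78 and -0.70. The fitted difference was 1.04 ± 0.39 (edgeR adjusted p = 0.2001), and that of Fosb 1.18 ± 0.28 (adjusted p = 0.0697). With total UMIs as the only scaling the median of all genes moved from -0.027 to -0.52, and Fos, Junb and Ier2 changed sign. Whether the age difference itself differed between the classes was tested by the interaction. The age difference of Atf3 was higher in keratocyte-like than in epithelial cells by 1.46 ± 0.38 (edgeR adjusted p = 0.0196). It was 1 of 8 genes to pass, where 0.865% of all genes passed. That call was lost with DESeq2, with thinned cells and with total UMIs. It was also lost without WT (2.16) or KO cornea at 2 months (0.79) or KO cornea at 6 months (0.81). Fits without a library also drop the class-by-genotype term.

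**Figure D3:**
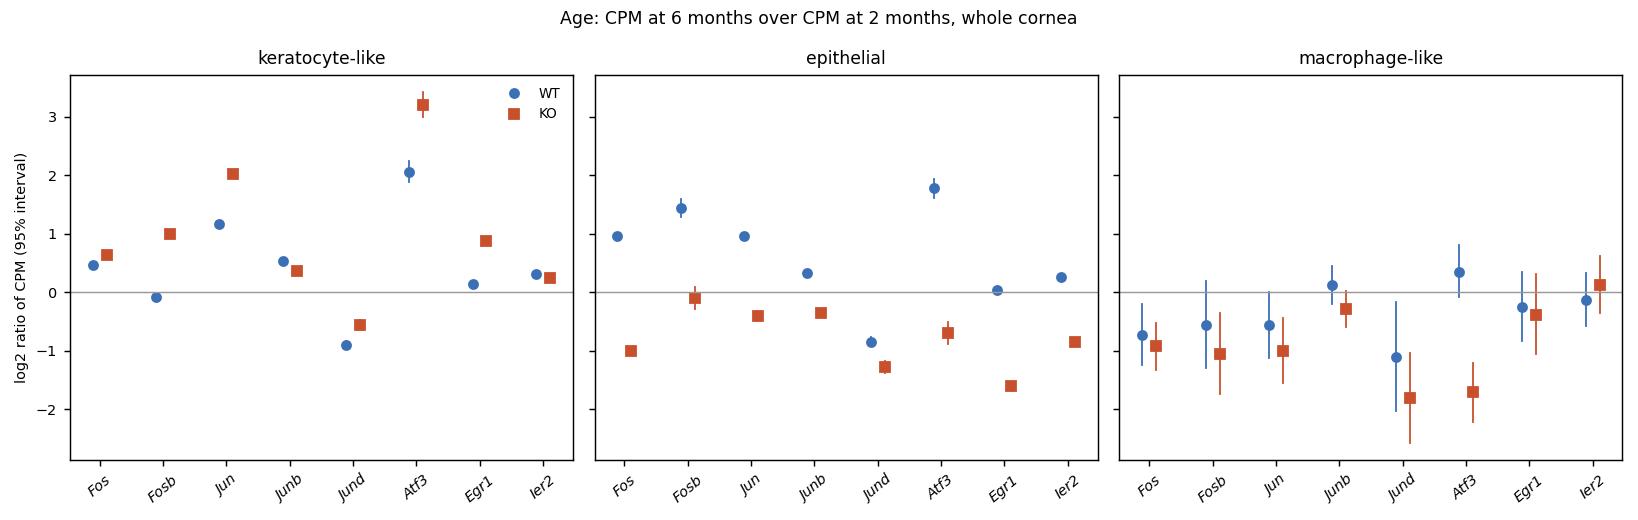
Log2 ratio of the level at 6 months to that at 2 months for each gene, in WT and in KO. Panels show keratocyte-like, epithelial and macrophage-like cells. Bars are 95% intervals from counting error alone. Macrophage-like cells, in which age was not tested, had 2 of 8 genes above 0 in WT and 1 of 8 in KO. Of all genes of at least 10 CPM, 49.0% and 47.2% were above 0 there. Atf3 and Jun lie above 0 in both genotypes in keratocyte-like cells, and in epithelial cells the WT and KO ratios of Fos, Jun, Junb, Atf3 and Ier2 lie on opposite sides of 0.

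Of the 8 genes, Jund alone was called between the bead-enriched and the whole-cornea libraries in every class tested. In macrophage-like cells its level was 96.2 CPM (WT) and 98.1 CPM (KO) in the 6-month corneas against 446 CPM (WT) and 544 CPM (KO) in CRIC. In keratocyte-like cells the 4 values were 94.0 and 131 in cornea and 337 and 404 in CRIC. In epithelial cells they were 102 and 100.1 in cornea and 299 and 289.9 in CRIC. The log2 ratio of CRIC to cornea was 2.21 in WT and 2.47 in KO macrophage-like cells, 1.84 and 1.63 in keratocyte-like cells and 1.55 and 1.53 in epithelial cells. The median ratio of all genes of at least 10 CPM was 0.053 and -0.039, 0.024 and -0.14, and 0.35 and 0.69 in the same order. In each class both CRIC libraries were above both cornea libraries, although keratocytes and epithelial cells do not carry CD45.

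Jund was higher in CRIC by 2.33 ± 0.34 log2 units in macrophage-like cells (SE, edgeR adjusted p = 7.94e-05), the only gene of the 8 called there, where 2.14% of all genes passed. It was higher by 1.82 ± 0.47 in keratocyte-like cells (adjusted p = 0.0115), again alone, where 1.17% passed. In epithelial cells the difference was 1.02 ± 0.20 (adjusted p = 0.000355), where 24.5% of genes passed. Fits without each of the 4 libraries in turn also drop the genotype covariate. In them Jund was higher by 2.23 to 2.46 in macrophage-like and by 1.61 to 2.00 in keratocyte-like cells. The keratocyte-like call was lost only when each cell was thinned to 500 UMIs (1.56, edgeR adjusted p = 0.141). The epithelial call was lost without WT CRIC, KO CRIC or WT cornea. Free RNA moved less: Jund was 93.4 and 134 CPM in the free RNA of cornea and 139 and 229.8 in that of CRIC. The 6-month cornea levels of Jund lay only slightly above free RNA in WT and below it in KO, in every class compared. The KO cornea levels therefore cannot be told apart from background. At 2 months, macrophage-like cells of whole cornea held 206 and 343 CPM, between the 6-month cornea and CRIC values. The macrophage-like class was held by different clusters in these libraries, as given above. The CRIC and cornea libraries differ in bead enrichment and in any step that goes with it, and these cannot be told apart.

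A further 3 genes were called in epithelial cells: Egr1 was higher in CRIC (0.84 ± 0.22, edgeR adjusted p = 0.00668), and Junb (-1.27 ± 0.23, adjusted p = 0.000169) and Fosb (-0.77 ± 0.20, adjusted p = 0.00481) were lower. No gene of the 8 was called in epithelial cells without WT CRIC or without KO CRIC, Fosb was also lost without WT cornea (-0.45) and Egr1 without KO cornea (0.53). With total UMIs as the only scaling the median of all genes moved from 0.017 to 0.54, and their split from 1172 called higher and 1523 lower to 2891 and 724. The call of Fosb was then lost (-0.25), and Atf3 (1.05) and Jun (0.59) passed as higher. Epithelial Fosb was below free RNA in all 6 libraries. Epithelial Egr1 was below free RNA in both 6-month corneas, where free RNA held 550 (WT) and 557 CPM (KO) of it. Fosb and Junb were also lower in the free RNA of CRIC. The log2 ratios were -0.78 in WT and -1.44 in KO for Fosb and -2.05 and -0.23 for Junb. The 6 lists of related genes differed, and the 3 with the lowest medians are given first. The other immediate early genes gave 2 higher and 9 lower of 20 tested, with Cyr61, a secreted matrix protein, at -1.98 and Ier3, a survival factor, at -2.41. Feedback inhibitors gave 0 higher and 8 lower of 12 tested, among them Tnfaip3 (-2.46), which limits NF-kB signalling, and Dusp5 (-1.80), an ERK phosphatase. Early inflammatory genes gave 0 higher and 7 lower of 9 tested, with Ptgs2 (-3.99), the inducible cyclooxygenase, lowest. The median log2 difference was -0.68, -1.13 and -1.92 over the 3 lists, against 0.017 over all genes. Of the other 3 lists, upstream kinases and serum response factors gave 3 higher and 4 lower of 16 tested (median 0.23), other bZIP genes 1 and 3 of 15 (-0.039) and heat shock genes 2 and 4 of 14 (-0.21). Markers moved between these epithelial sums as well. The 12 keratocyte markers, 9 to 12 of them above zero, summed to 834 and 453 CPM in the WT and KO corneas and to 37.0 and 58.5 CPM in CRIC, and the 16 epithelial markers to 20233 and 18947 CPM in cornea and 35390 and 45702 CPM in CRIC. The part of this shift in the lower levels was not tested. In macrophage-like cells Errfi1 (1.44), an inhibitor of the EGF receptor, was called higher, and in keratocyte-like cells Jdp2 (1.64), a repressor that dimerises with Jun.

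**Figure D4:**
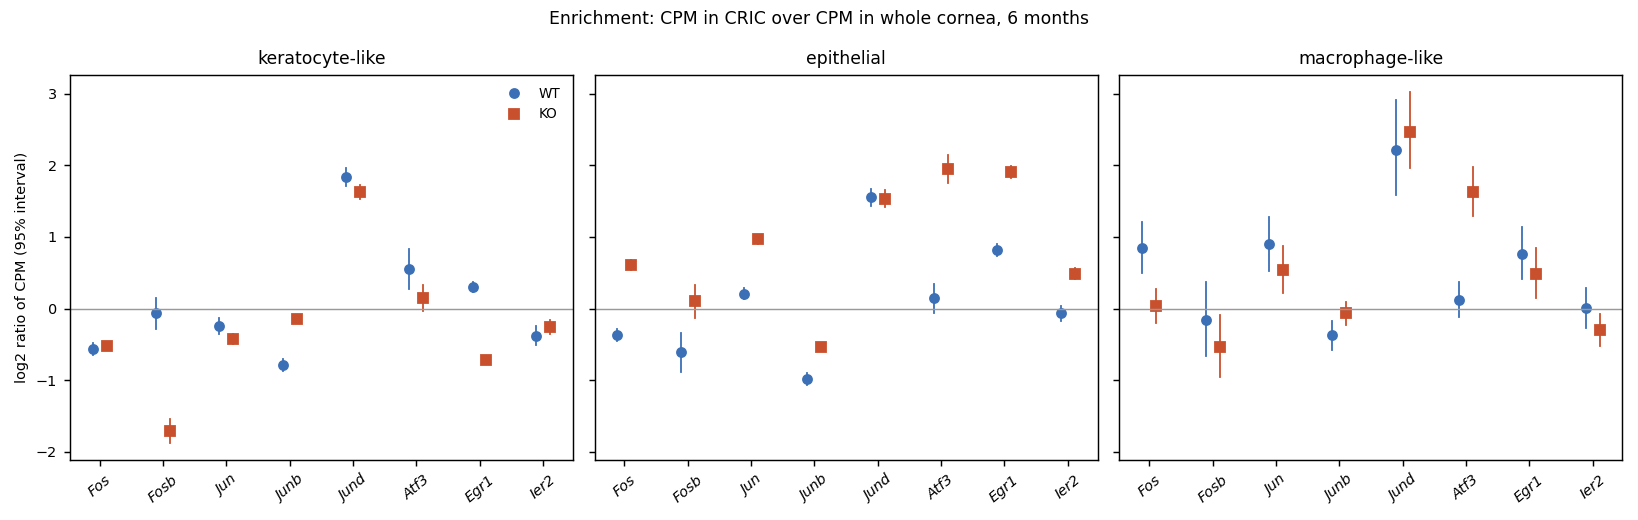
Log2 ratio of the level in CRIC to that in whole cornea at 6 months for each gene, in WT and in KO, for macrophage-like, keratocyte-like and epithelial cells; bars are 95% intervals from counting error alone. Jund lies above 0 in both genotypes in all 3 classes.

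The genotype comparison asks whether loss of the microRNA cluster went with a change in these genes. No gene of the 8 passed in keratocyte-like cells (age as covariate, 4 cornea libraries), where 0.313% of all genes passed by edgeR. None passed in epithelial cells, where 0.0164% passed, nor in macrophage-like cells over all 6 libraries, where 0.427% passed. DESeq2 called none in the 3 classes either. At an unadjusted p under 0.05 there were 0, 0 and 1 genes, the last being Egr1 in macrophage-like cells. Egr1, which holds a miR-183 seed match, had there 375 CPM (WT) and 297 CPM (KO) at 2 months, 316 CPM (WT) and 227 CPM (KO) at 6 months and 537 CPM (WT) and 318 CPM (KO) in CRIC. It was lower in KO in each of the 3 pairs (fitted -0.64 ± 0.29, adjusted p = 0.858), although the WT and KO ranges overlapped and the leading macrophage-like clusters of the pairs differed. Free RNA of the KO libraries held 471 CPM of Egr1 at 2 months, 557 at 6 months and 444 in CRIC. All 3 KO levels lay below it and cannot be told apart from background. The same holds for WT cornea at 6 months, where free RNA held 550 CPM. Atf3, which holds a miR-96 seed match, differed by -0.59 ± 0.31 in macrophage-like cells and did not pass. In a test on simulated counts for the 3513 genes of this comparison, 35% of 2-fold and 100% of 4-fold changes were recovered, so smaller differences may not be detectable with these libraries.

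Epithelial cells held a pattern that this test, which averages the ages, does not show. Fos had 346 CPM (WT) and 678 CPM (KO) at 2 months, 671 CPM (WT) and 337 CPM (KO) at 6 months and 521 CPM (WT) and 514 CPM (KO) in CRIC. Egr1 stood at 321 and 468 CPM, then 328 and 154, then 578 and 576. KO was the higher of the pair at 2 months, the lower at 6 months and close to WT in CRIC. Free RNA held 367 (WT) and 471 CPM (KO) of Egr1 at 2 months, and 550 and 557 CPM at 6 months. The Egr1 levels of these corneas all lay below it and cannot be told apart from background. All 8 genes were higher in KO at 2 months (log2 ratios 0.40 to 1.08, all 8 counting intervals above 0). All 8 were lower at 6 months (-1.39 to -0.027, 7 intervals below 0). Most other genes moved the same way: of all genes of at least 10 CPM in the pair, 79.2% were higher in KO at 2 months (median log2 ratio 0.21, against 0.58 for the 8) and 19.2% at 6 months (median -0.34, against -0.87). In CRIC the ratios ran from -0.36 to 0.41. With 1 library in each cell of this design, the change of direction with age was not tested.

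The directions were the same for most of the 8 genes inside the larger epithelial clusters. The share of all genes that moved this way was taken for the whole class, as given above, and not inside clusters. The cluster counts therefore do not show a pattern particular to the 8 genes. In the cluster led by Dapl1, Krt12 and Krt5, 8 of 8 genes were higher in KO at 2 months and 7 of 8 lower at 6 months. In the cluster led by Krt12, Gsta4 and Krt5 the counts were 8 and 7, and in the shallow Dsp-led cluster 7 and 8. In the superficial Lce3a-led cluster they were 7 and 5. The 2 smallest clusters compared differed at 2 months: a Muc4-led cluster had 3 genes higher and 4 lower, and a second cluster led by Krt5 and Dapl1 had 1 and 4. The make-up of the epithelium also differed: the Lce3a- and Psca-led superficial cluster, low in Fos and Egr1, held 16.2% of WT and 8.19% of KO epithelial cells at 2 months and 21.9% and 31.3% at 6 months. A second superficial cluster, of 2682 cells led by Psca and Asprv1, is outside the epithelial class, because it held a marker of monocytes and none of epithelium among its leading genes. In it 5 of 8 genes were higher in KO at 2 months and 4 of 8 lower at 6 months. With its cells added to the class, a choice made after seeing the data, the 2 superficial clusters made up 34.5% (WT) and 21.3% (KO) of it in the 2-month corneas and 38.9% and 43.9% in the 6-month ones. All 8 genes were then higher in KO at 2 months (log2 ratios 0.23 to 1.32) and 7 of 8 lower at 6 months (-1.17 to 0.094), Jund being the exception. Depth moved with the sums as well. The median epithelial cell held 4471 (WT) and 4781 (KO) UMIs at 2 months, and 6766 and 3411 at 6 months. With each cell thinned to 500 UMIs, the mean number of UMIs of the 8 genes per cell was 1.42 and 2.07 at 2 months and 2.27 and 1.34 at 6 months. Within the 2-month KO library, epithelial cells with only Y-linked UMIs held 3313 CPM of the 8 genes and those with only Xist 3881 CPM, both above the 2333 CPM of WT.

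In keratocyte-like cells the order was the reverse. At 2 months 6 of 8 genes were lower in KO, and at 6 months 6 of 8 were higher, where 50.9% and 61.1% of all genes of at least 10 CPM were higher. In the 6-month corneas Fosb had 112 CPM (WT) and 246 CPM (KO) and Jun 447 CPM (WT) and 679 CPM (KO). Both were higher in KO, while Junb was lower, at 1247 and 910.4 CPM. In free RNA of these libraries Fosb stood at 129.7 and 220.2 CPM. The make-up of the class differed as well. The pair of Lars2-led clusters, richer in Egr1 and Fosb than the largest one, held 1940 and 1972 of 10205 WT cells at 2 months. In KO they held 1134 and 713 of 8029. At 6 months they held 1018 and 408 of 11015 WT cells and 1230 and 1457 of 8555 KO cells. The Saa3- and Chil1-led cluster held 2147 of these KO cells. The part of this make-up in the reversal was not tested. The test of whether the genotype difference itself differed between keratocyte-like and epithelial cells called no gene of the 8. Of all genes, 0.216% passed. Atf3 differed by 0.021 in this test. Without the 2-month KO library, in a fit that also dropped the class-by-age term, it differed by 1.43. Of the listed genes, Nr4a2 (-1.03) and Nr4a3 (-0.90), orphan nuclear receptors of the same early wave, were called lower in KO keratocyte-like cells, 2 of the 22 other immediate early genes tested there.

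**Figure D5:**
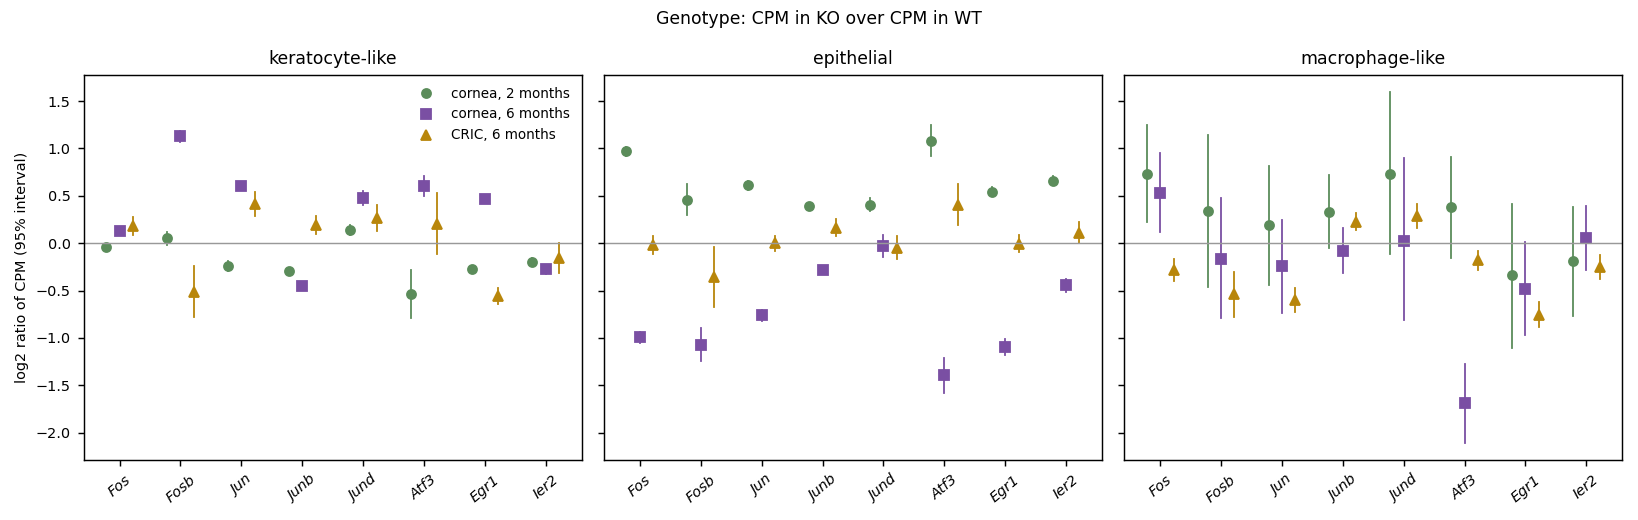
Log2 ratio of KO to WT for each gene in the 3 library pairs (cornea at 2 months, cornea at 6 months, CRIC), for keratocyte-like, epithelial and macrophage-like cells; bars are 95% intervals from counting error alone. In epithelial cells all 8 genes lie above 0 at 2 months and below 0 at 6 months.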

How the data were processed

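Each library was deposited as an unfiltered gene-by-barcode matrix of UMI counts, made with Cell Ranger, version 6.0.1 per the file headers and 2.1.1 per the submitters' processing notes, which also name the mm10 build; the counts are raw and no source used here gives further settings of the authors. The kit is the 3′ v2 chemistry per the labels' protocols. The 8 genes and the lists of related genes were chosen with earlier results of these data known. A barcode counted as a cell where it held 500 or more UMIs and 250 or more genes, where no more than 20% of its UMIs were mitochondrial, and where it differed from free RNA at an adjusted p of 0.01. No doublet caller was run. The 2000 most variable genes, without the 8 genes and the lists, were reduced to 30 components, joined in a 15-neighbour graph and clustered with leidenalg 0.10.2 at resolution 1 in scanpy 1.11.5, and immune clusters were clustered again. Clusters were named from fixed marker lists, with at least 3 markers detected, and classes with under 20 cells in a library were not used there.

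Counts were summed per class and library and tested with edgeR 4.0.16 (TMM scaling, low-count filter, quasi-likelihood test, Benjamini-Hochberg adjustment over all genes tested, threshold 0.05). Each group is 1 library: genotype was tested with age or library pair as a covariate, age and enrichment with genotype, and classes with library. A fit of 4 libraries with its covariate leaves 1 residual degree of freedom. Its SE and p-value therefore rest largely on variance estimates that edgeR shares across genes. CPM carry 95% exact Poisson intervals and shares exact binomial ones, which cover counting error only; UMIs are counted molecules. The test was tested on simulated counts: in the genotype comparison of keratocyte-like cells (14052 genes, 200 of them changed) it recovered 41% of 2-fold and 100% of 4-fold changes, and for age in epithelial cells (12221 genes) 42% and 100%. Alternatives were DESeq2 1.42.0, RLE scaling, no filter, at least 1000 UMIs per cell, and cells thinned to 500 UMIs. Others were the 8 genes kept for clustering, another clustering seed, the tested factor alone and each library left out. In a test of 4 libraries, leaving out 1 also dropped the covariate term, so the model changed too. Total UMIs as the only scaling, the epithelial class with an unnamed superficial cluster and the largest cluster of a class alone were added after seeing the data. The text names the 8 genes, and of each list up to 4 genes past the threshold with the largest change.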

Additional observations from a re-analysis of the deposited data

Results flagged for a closer look

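In 1 result a test of the difference between classes passed. The age difference of Atf3 was higher in keratocyte-like than in epithelial cells by 1.46 log2 units (edgeR adjusted p = 0.0196). In epithelial cells the log2 ratio of 6 to 2 months was 1.78 in WT and -0.70 in KO. The call was lost in 6 of 13 other settings, DESeq2 among them.

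The other results are pairs of log2 ratios that lie on opposite sides of 0, each from 1 library against 1 library. Differences between the members of these pairs were not tested. In keratocyte-like cells the KO to WT ratio at 2 and at 6 months was -0.045 and 0.13 for Fos, -0.24 and 0.60 for Jun, -0.54 and 0.61 for Atf3, and -0.27 and 0.46 for Egr1. In epithelial cells the same ratios were 0.97 and -0.99 for Fos, 0.46 and -1.07 for Fosb, 0.61 and -0.76 for Jun, and 0.40 and -0.29 for Junb. They were 1.08 and -1.39 for Atf3, 0.54 and -1.10 for Egr1, and 0.66 and -0.45 for Ier2. The ratios of Fos, Jun, Atf3 and Egr1 thus had opposite signs in the 2 classes. These pairs were listed because both counting intervals excluded 0 on opposite sides. The medians of all genes of at least 10 CPM were 0.0029 and 0.13 in keratocyte-like cells and 0.21 and -0.34 in epithelial cells. The genotype-by-class test called none of these genes. Epithelial Egr1 lay below free RNA in these corneas, as did keratocyte-like Atf3 in all but KO cornea at 6 months.

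The ratio of 6 to 2 months in WT and in KO was -0.073 and 1.004 for Fosb in keratocyte-like cells. In epithelial cells it was 0.96 and -1.01 for Fos, 0.97 and -0.40 for Jun, 0.33 and -0.35 for Junb, 1.78 and -0.70 for Atf3, and 0.26 and -0.84 for Ier2; these ratios use the same 4 libraries as the genotype ratios. The CRIC to cornea ratio in WT and in KO was 0.30 and -0.72 for Egr1 in keratocyte-like cells and -0.37 and 0.61 for Fos in epithelial cells.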

How the results depend on the processing

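Of the 104 tests of a single gene, 25 passed, and of their 354 values under other settings 284 kept direction and call, 67 lost the call and 3 changed direction. Between keratocyte-like and epithelial cells Junb turned to 0.053 with thinned cells and 0.17 with total UMIs, Jund to 0.084 with total UMIs, and Fos, not called, to -0.31 in the largest clusters. Between macrophage-like and epithelial cells Junb turned to 0.51 and Ier2 to 0.52 with total UMIs. Counts of genes called out of 8 moved as follows. For age in keratocyte-like cells the 2 became 1 without the genotype covariate and 5 in the largest cluster. For age in epithelial cells the 0 became 1 with DESeq2, 2 without a filter, 1 with at least 1000 UMIs per cell, 2 with the genes kept for clustering and 3 in the largest cluster. For enrichment in keratocyte-like cells the 1 became 0 with thinned cells and 2 in the largest cluster, and in epithelial cells the 4 became 2 without the genotype covariate. For keratocyte-like against epithelial cells the 6 became 3 with thinned cells. For age by class the 1 became 0 with DESeq2, 0 with thinned cells, 0 with total UMIs and 2 in the largest clusters. Leaving out each library in turn gave 1 to 6 for age in keratocyte-like cells, 0 to 1 for age in epithelial cells, 1 to 2 for enrichment in macrophage-like cells, 1 to 2 in keratocyte-like cells and 0 to 3 in epithelial cells, 0 to 3 for genotype by class and 0 to 2 for age by class. The counts for genotype in the 3 classes stayed at 0 in every setting run. Leaving out 1 of 4 libraries also dropped the covariate term from the fit. The cause of the changes in these counts was not tested. Depth limits the macrophage-like class of whole cornea, with 76 to 267 cells a library, and the T or innate lymphoid-like class.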
